A study of Mus musculus with 9 samples.

Results

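Proliferating cells build serine from the glycolytic intermediate 3-phosphoglycerate and split it into glycine and a folate-bound carbon unit. The genes examined here were Phgdh, Psat1, Psph, Shmt1, Shmt2, Gldc, Mthfd1, Mthfd2, Mthfd1l and Aldh1l2, which make up 10 of the 24421 genes in the counts table of 4T1 cells. They were listed by name for their role in serine, glycine and folate metabolism. The list was chosen by a reading of these same libraries, in which Mthfd2 and Shmt2 had already stood out between 3D and 2D cultures, so the values of the members are given as a description. Members past a threshold are counted beside the share of all genes past it, no p-value is printed for a member, and nothing is supported with these counts.

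4T1 is a mouse mammary carcinoma cell line that metastasizes to the lung. The study compared 3D spheroids of 4T1 cells grown on soft agar with added palmitate at 75 µM, 3D spheroids without added palmitate, which received the albumin and ethanol vehicle, and 2D monolayers with palmitate at 75 µM, with 3 libraries in each condition and 5 days of culture. The serum in the medium of all 3 conditions also carried fatty acids, and 2D cultures lacking added palmitate were not analysed here. A single cell line was used, and the labels do not say whether the replicates were separate cultures, so the error given here is the spread between libraries.

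Libraries held between 6595514 and 31177756 counts, with the fewest in replicate 3 of the 3D cultures with palmitate. All 6 epithelial markers checked (Epcam, Cdh1, Krt8, Krt18, Krt14 and Krt19) stood at 112 CPM or more (CPM being counts scaled to libraries of equal size) in every library, and their summed level was between 3215 and 3436 CPM in 2D libraries and between 4515 and 4674 CPM in 3D libraries with palmitate. The summed level of 5 immune markers was at most 0.976 CPM and that of 3 endothelial markers at most 0.579 CPM. Of 4 fibroblast markers, Pdgfrb, Dcn and Lum had at most 1 count in any library, whereas Pdgfra lay between 29.5 and 110.4 CPM and was higher in 3D than in 2D cultures. Levels were normalized for library size by TMM, and 12575 genes passed the filter on low counts, among them 9 of the 10 members.

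Serine synthesis takes place in the cytosol. Phgdh encodes the dehydrogenase that commits 3-phosphoglycerate to the pathway, Psat1 the aminotransferase that follows, and Psph the phosphatase that releases serine. Shmt1 in the cytosol and Shmt2 in mitochondria transfer a carbon unit from serine to tetrahydrofolate and leave glycine. In mitochondria the carbon unit is oxidized by MTHFD2 and released as formate by MTHFD1L or as carbon dioxide by ALDH1L2, and in the cytosol MTHFD1 returns formate to the folate pool for purine and thymidylate synthesis. Gldc encodes the decarboxylase of the glycine cleavage system. Several of these genes are known targets of ATF4, the transcription factor of the integrated stress response, and of MYC.

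Promoter stretches are shown for 6 members, namely Phgdh, Psat1, Psph, Mthfd2, Shmt2 and Mthfd1l, chosen with their changes between the cultures known. Whether the letters of a promoter bear on these changes was not tested. The sequences were taken from RefSeq on GRCm38.p6, where 9 of the 10 members had a promoter entry (all but Aldh1l2), and each covers the 120 bases before an annotated start, read 5′ to 3′ along the gene. Psat1 had 2 annotated starts, and the stretch shown is that of the one whose window held CCAAT, while the other window held none. Capitals mark CCAAT on either strand, the motif named after the CCAAT box of many promoters.
Phgdh (chr3:98339970-98340089, minus strand): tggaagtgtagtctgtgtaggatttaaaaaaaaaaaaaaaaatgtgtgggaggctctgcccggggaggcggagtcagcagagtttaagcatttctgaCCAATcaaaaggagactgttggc
Psat1 (chr19:15925060-15925179, minus strand): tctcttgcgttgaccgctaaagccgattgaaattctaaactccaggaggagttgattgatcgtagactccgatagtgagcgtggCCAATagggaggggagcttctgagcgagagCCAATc
Psph (chr5:129787254-129787373, minus strand): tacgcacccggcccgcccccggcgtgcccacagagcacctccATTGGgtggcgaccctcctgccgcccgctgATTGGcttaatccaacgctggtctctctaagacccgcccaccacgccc
Mthfd2 (chr6:83317605-83317724, minus strand): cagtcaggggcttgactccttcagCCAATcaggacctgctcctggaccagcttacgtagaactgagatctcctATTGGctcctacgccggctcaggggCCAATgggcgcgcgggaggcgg
Shmt2 (chr10:127522445-127522564, minus strand): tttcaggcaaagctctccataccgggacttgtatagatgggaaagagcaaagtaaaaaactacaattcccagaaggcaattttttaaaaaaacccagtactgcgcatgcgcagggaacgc
Mthfd1l (chr10:3972955-3973074, plus strand): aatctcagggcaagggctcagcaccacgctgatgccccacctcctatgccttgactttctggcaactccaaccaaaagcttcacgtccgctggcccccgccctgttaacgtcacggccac

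In the whole windows of 300 bases, from 250 bases before the start to 50 after it, CCAAT was found on either strand in 7 of the 9 members with an entry (Phgdh, Psat1, Psph, Shmt1, Gldc, Mthfd1 and Mthfd2), against 41.1% of all 27025 genes with an entry. Shmt2 and Mthfd1l held none. The C/EBP-ATF response element TGATGNAAN and the E-box CACGTG, motifs through which ATF4 and MYC act, were found on neither strand in any of the 9 members, against 4.5% and 8.09% of all genes. The same held for TGATGCAA, a form of the first motif, and for the cyclic AMP response element TGACGTCA, found in 1.03% and 2.03% of all genes. At shares this low, finding none in 9 genes does not set them apart from all genes. The antioxidant response motif TGACNNNGC was found in Phgdh and Psph, against 14.0% of all genes. These matches describe letters in these windows only.

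Between 3D and 2D cultures, both with palmitate, 8 of the 9 members tested were called lower in 3D, at an adjusted p-value under 0.05 in edgeR's quasi-likelihood test over all genes, and 1, Mthfd1l, was called higher. Over all genes tested, 33.9% were called lower and 34.5% higher, and nothing is read from the count of the members, which were listed with this comparison known. The median log2 fold change was -0.97 over the 9 members and 0.01 over all genes tested. The same 8 members had no overlap between the groups, with all 3 libraries in 3D below all 3 in 2D, as did 34.8% of all genes, and Mthfd1l was among the 34.6% with all 3 libraries in 3D above those in 2D. In bulk libraries, fewer cells that express a gene and less RNA per cell cannot be told apart.

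**Figure D1:**
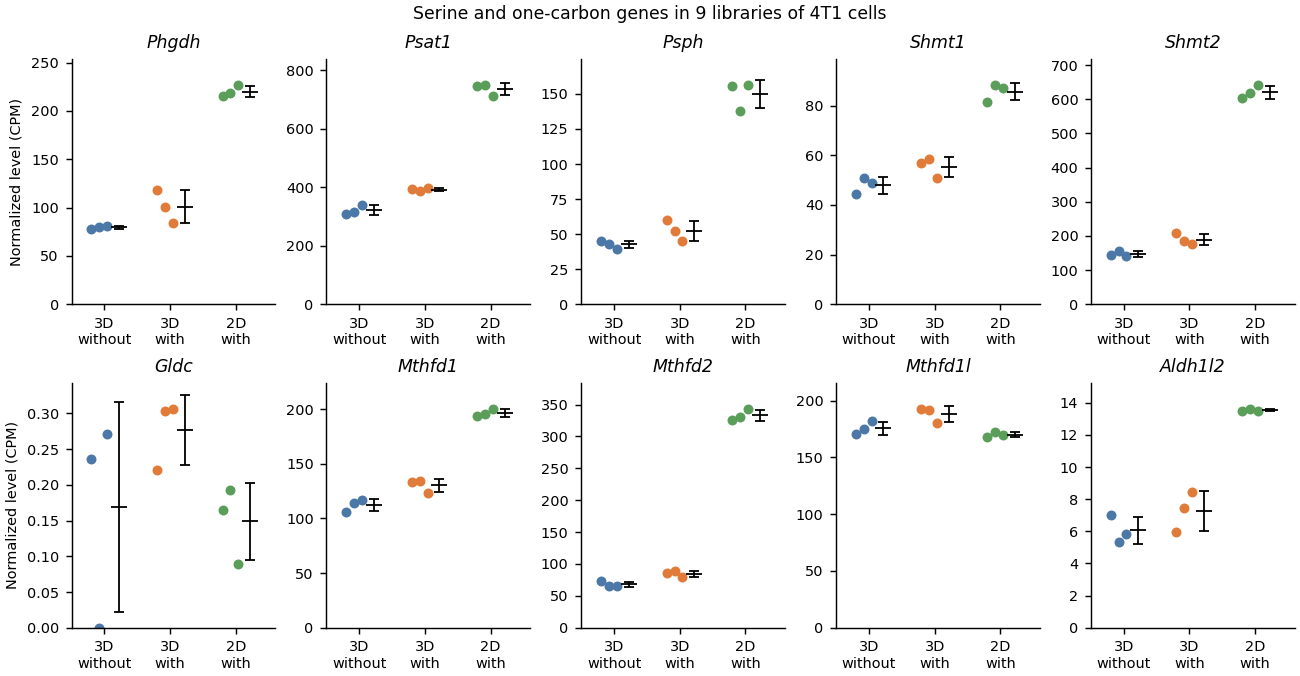
Normalized level in CPM (vertical axes from 0, a separate scale for each gene) of the 10 members in the 9 libraries, by culture condition (3D without palmitate, 3D with palmitate, 2D with palmitate). Points are libraries and bars are the mean ± SD of 3 libraries. For 8 members the 2D libraries lie above all 3D libraries, Mthfd1l is at a like level throughout, and Gldc is close to 0.

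The 3 serine synthesis genes were lowest in 3D cultures without palmitate and highest in 2D cultures. Phgdh (chr3:98313170-98339990, minus strand on GRCm38, as for the loci that follow) stood at 78.1, 80.0 and 80.7 CPM in the 3D libraries without palmitate, at 118, 100.2 and 84.1 CPM in those with palmitate, and at 215, 218 and 226 CPM in 2D libraries. The 2D libraries were well above all 3D libraries, and the 3D libraries with palmitate were spread more widely than the others. In 3D relative to 2D its log2 fold change was -1.11 (SE 0.0918), a level 2.15-fold lower in 3D.

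Psat1 (chr19:15904678-15947337, minus strand) had 309.8, 314 and 340.5 CPM in 3D cultures without palmitate, 394, 386 and 396 CPM with palmitate, and 745, 748 and 711 CPM in 2D cultures. The 3 conditions did not overlap at any point. In 3D its log2 fold change relative to 2D was -0.91 (SE 0.0588), the smallest fall of the serine synthesis genes.

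Psph (chr5:129765558-129787449, minus strand) had 45.1, 43.0 and 39.7 CPM without palmitate in 3D, 59.7, 52.4 and 45.3 CPM with it, and 155, 138 and 156 CPM in 2D. Here the lowest 3D library with palmitate was almost level with the highest one without. Relative to 2D, the log2 fold change in 3D was -1.49 (SE 0.0905), or 2.81-fold lower in 3D, the largest fall of the serine synthesis genes. Psph shares 452 of its 1733 exon bases with Cct6a on the other strand. The strand setting of the counting is not given in the sources used here, so reads from these bases may have been lost or assigned to either gene. Cct6a itself stood at 582 CPM in 3D with palmitate and at 872 CPM in 2D (log2 fold change -0.58, SE 0.0632).

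The paired hydroxymethyltransferases differed in the size of their fall. Shmt2, the mitochondrial enzyme (chr10:127517123-127522444, minus strand), had 145, 156 and 140.2 CPM in 3D without palmitate, 208, 184 and 176 CPM in 3D with palmitate, and 603, 619 and 641 CPM in 2D. Every 2D library lay far above the highest 3D library. Its log2 fold change between 3D and 2D was -1.71 (SE 0.0723), a 3.27-fold lower level.

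Shmt1, the cytosolic enzyme (chr11:60788104-60811718, minus strand), had 44.3, 50.9 and 48.7 CPM in 3D without palmitate, 57.0, 58.4 and 50.7 CPM with palmitate, and 81.6, 88.2 and 87.2 CPM in 2D. The 2D libraries were again above all others, and the lowest 3D library with palmitate lay just under the highest one without. In 3D the log2 fold change against 2D was -0.62 (SE 0.0735), or 1.54-fold lower in 3D. Shmt1 shares 184 of 2858 exon bases with Smcr8 on the other strand, which went the other way (log2 fold change 0.70, SE 0.0790).

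Gldc (chr19:30098447-30175429, minus strand) was hardly detected. It had 5, 0 and 5 counts in the 3D libraries without palmitate, 6, 4 and 2 with palmitate, and 2, 6 and 2 in 2D, or at most 0.306 CPM. It did not pass the filter on low counts, and no difference between conditions was detectable at this depth.

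The folate genes held both the largest change of the list and the only one upward. Mthfd2 (chr6:83305691-83325908, minus strand) had 72.9, 64.7 and 66.2 CPM in 3D without palmitate, 86.4, 88.7 and 79.5 CPM with palmitate, and 326, 329.9 and 343 CPM in 2D. The 2D libraries were far above all 3D libraries, and the conditions did not overlap. In 3D its log2 fold change relative to 2D was -1.97 (SE 0.0683), a 3.91-fold lower level, and 0.883% of all genes tested had a more negative value.

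Mthfd1l (chr10:3973118-4167081, plus strand), whose product works directly after MTHFD2 on the way to formate, had 170.5, 175 and 182 CPM in 3D without palmitate, 193, 192 and 181 CPM with palmitate, and 168, 172 and 169.8 CPM in 2D. All 9 libraries lay in this narrow range. Relative to 2D, the log2 fold change in 3D was 0.15 (SE 0.0582). The call as higher was lost in 12 of 19 alternative fits, and once trends with GC content and length were taken out of every library it was -0.00014 (SE 0.0430). In the other 18 alternatives it stayed above 0.

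Mthfd1, the trifunctional folate enzyme of the cytosol (chr12:76255298-76319803, plus strand), had 106, 114 and 117 CPM in 3D without palmitate, 134, 134 and 123 CPM with palmitate, and 193, 196 and 200.2 CPM in 2D. The conditions formed separate steps. Its log2 fold change between 3D and 2D was -0.59 (SE 0.0620), the smallest of the falls, close to that of Shmt1, the other cytosolic folate enzyme of the list.

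Aldh1l2 (chr10:83487450-83534140, minus strand) had the lowest level per kilobase of the members tested, with 6.99, 5.36 and 5.80 CPM in 3D without palmitate, 5.96, 7.44 and 8.42 CPM with palmitate, and 13.5, 13.6 and 13.5 CPM in 2D. Only the 2D libraries stood apart. In 3D the log2 fold change against 2D was -0.97 (SE 0.131). Its raw counts were between 55 and 425 per library, and 1056 of its 6091 exon bases are shared with D10Wsu102e on the other strand, which had nearly equal levels in both conditions (log2 fold change 0.02, SE 0.0728).

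**Figure D2:**
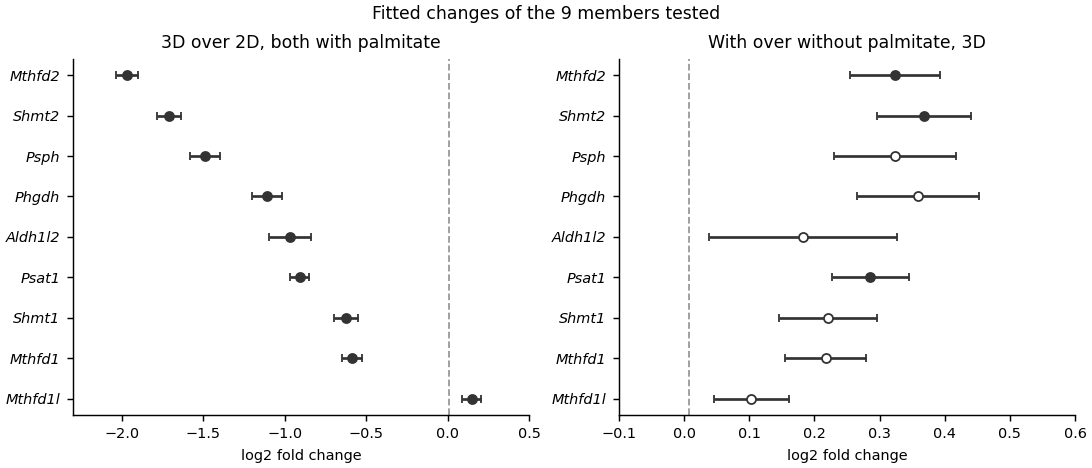
Log2 fold change with its SE for the 9 members tested, in 3D over 2D cultures with palmitate (left) and with over without palmitate in 3D cultures (right), from the same fit of 9 libraries. Filled points passed an adjusted p-value of 0.05, open points did not, and the dashed line is the median of all genes tested. On the left 8 members lie between -1.97 and -0.59 and Mthfd1l at 0.15, and on the right all 9 lie between 0.10 and 0.37. The 2 panels have different horizontal scales.

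Per kilobase of exon, counted over all annotated transcripts of a gene, the order of the members changed between the culture formats. Psat1 has 2936 such bases but 2617 in its longest transcript, Shmt2 2305 and 2289, and Mthfd1l 4270 and 3687. The order of Shmt2 and Psat1 in 2D, and the overlap of Mthfd2 with Mthfd1l in 3D with palmitate, therefore depend on the length used. In 2D cultures Shmt2 was highest, at 269 ± 8.27 CPM per kilobase (SD, n = 3), then Psat1 at 250.1 ± 6.97 and Mthfd2 at 159.7 ± 4.36, and no member overlapped with the next in order. In 3D cultures with palmitate Psat1 was highest, at 133 ± 1.89 CPM per kilobase, then Shmt2 at 82.1 ± 7.23 and Phgdh at 53.3 ± 9.06. There Mthfd2, at 40.7 ± 2.30 CPM per kilobase, overlapped with both of its neighbours, Mthfd1l at 44.1 ± 1.61 and Mthfd1 at 40.2 ± 1.87, and Phgdh also overlapped with Mthfd1l. In 3D cultures without palmitate Mthfd2 was in place 6, below Mthfd1l and overlapping with Mthfd1. Shmt1, Aldh1l2 and Gldc took the last places in all 3 conditions.

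Ratios of members within a library do not depend on how libraries are scaled. The ratio of Shmt2 to Shmt1 per exon base was 8.99 ± 0.257 (SD, n = 3) in 2D cultures, 4.24 ± 0.315 in 3D cultures with palmitate and 3.81 ± 0.243 in 3D cultures without palmitate. The ratio of Mthfd2 to Mthfd1l was 4.01 ± 0.117 in 2D cultures, 0.922 ± 0.0217 in 3D cultures with palmitate and 0.794 ± 0.0721 in 3D cultures without it. In 2D libraries transcripts of Mthfd2 thus outnumbered those of Mthfd1l per exon base, and in all 6 of the 3D libraries they were fewer. The ratio of Mthfd2 to the cytosolic Mthfd1 was 2.64 ± 0.0249 in 2D cultures, 1.01 ± 0.0141 in 3D cultures with palmitate and 0.944 ± 0.106 without it. These pairs were picked after their values were seen and were not tested.

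**Figure D3:**
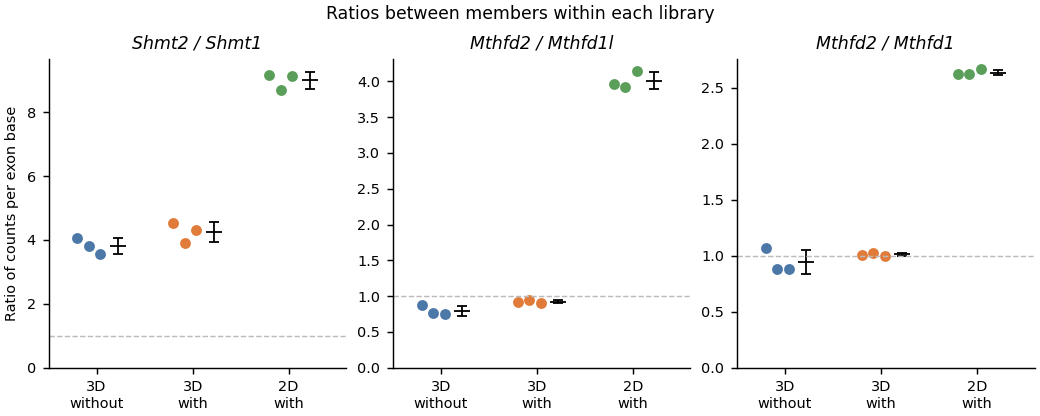
Ratio of counts per exon base for Shmt2 over Shmt1, Mthfd2 over Mthfd1l and Mthfd2 over Mthfd1 (vertical axes from 0) in each of the 9 libraries, by condition. Points are libraries, bars are the mean ± SD of 3 libraries, and the dashed line marks equal levels. All 3 ratios are higher in each 2D library than in any 3D library, and Mthfd2 over Mthfd1l lies below 1 in all 3D libraries.

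With palmitate in 3D cultures, 3 of the 9 members tested were called higher in the same test, namely Psat1, Shmt2 and Mthfd2, and none was called lower. Over all genes, 1.38% were called higher and 0.811% lower, and 7 members had an unadjusted p-value under 0.05, all of them higher, as had 10.3% of all genes, with 6.99% lower. DESeq2 on all libraries called 5 higher and 0 lower, against 2.05% of all genes called higher. The members were listed with this comparison known as well, and nothing is read from the counts. The mean was higher with palmitate for all 9 members, with a median log2 fold change of 0.29, against 0.01 over all genes tested.

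The changes were smaller in size than those between the culture formats, though for Mthfd1l both were small, at 0.10 and 0.15. Shmt2 had a log2 fold change of 0.37 (SE 0.0717), Psat1 0.29 (SE 0.0587) and Mthfd2 0.32 (SE 0.0687), or 1.29-fold, 1.22-fold and 1.25-fold higher levels. Of the members not called, Phgdh had 0.36 (SE 0.0931), Psph 0.32 (SE 0.0936), Shmt1 0.22 (SE 0.0753) and Mthfd1 0.22 (SE 0.0626). Mthfd1l, at 0.10 (SE 0.0582), and Aldh1l2, at 0.18 (SE 0.145), had the smallest values. Without replicate 1 of the 3D cultures with palmitate, Phgdh went to 0.22 and Psph to 0.21. Aldh1l2 ranged from 0.10 without replicate 3 of that group to 0.35 without its replicate 1, and was at 0.31 and 0.11 without replicates 1 and 2 of the 3D cultures without palmitate. The groups did not overlap for 6 members (Phgdh, Psat1, Psph, Shmt2, Mthfd1 and Mthfd2), all higher with palmitate, as were 10.4% of all genes, with 8.19% in the other direction.

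In the comparison with palmitate, the number of calls changed when single libraries were left out, while the log2 fold changes over the 19 alternative fits lay between 0.29 and 0.42 for Shmt2, 0.26 and 0.33 for Psat1, and 0.29 and 0.38 for Mthfd2. Replicate 3 of the 3D cultures with palmitate, the shallowest library, was the lowest of its group for 7 of the 9 members, and without it 7 members were called, while the count over all genes went from 275 to 1901. Without replicate 2 of the same group none was called by edgeR (6 at an unadjusted p-value under 0.05), and without replicate 1, 2 or 3 of the 3D cultures without palmitate 1 member was called in each fit, Mthfd2, Shmt2 and Psat1 in that order. Without replicate 1 of the 2D cultures, which enter this comparison only through the shared estimate of spread, 1 was called. The ribosomal RNA precursor Rn45s took between 1.77% and 2.77% of counts in 3D libraries without palmitate and between 1.81% and 5.38% in those with it. With its share as a covariate none of the 9 was called by edgeR (6 at an unadjusted p-value under 0.05), while the log2 fold changes were 0.39 for Shmt2, 0.28 for Psat1 and 0.29 for Mthfd2, and none was called with only the 6 libraries compared (7 at an unadjusted p-value under 0.05), where DESeq2 called 3. In none of the 19 alternative fits did a member turn lower with palmitate.

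**Figure D4:**
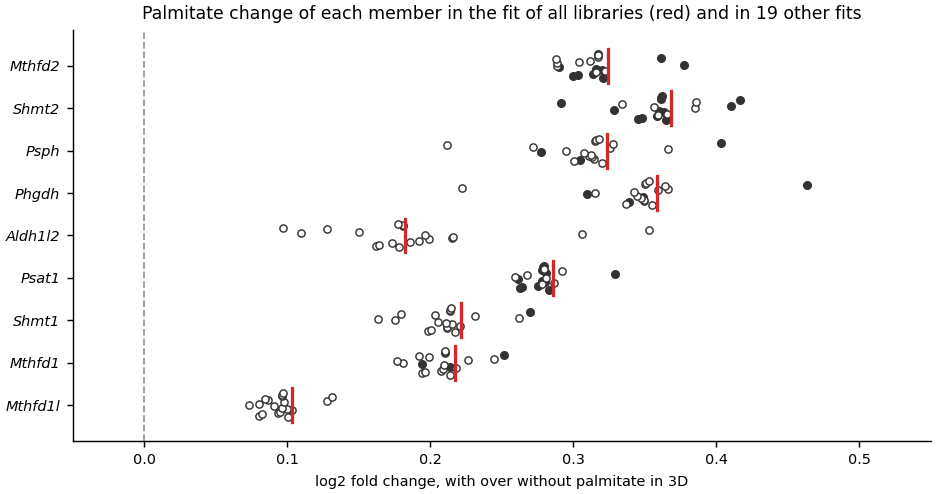
Log2 fold change with over without palmitate in 3D cultures (horizontal axis) for each of the 9 members tested. The red line is the fit of all 9 libraries and the points are 19 alternative fits, filled where the adjusted p-value was under 0.05. All points lie above 0, and Shmt2 is filled in 13 fits, Psat1 in 12 and Mthfd2 in 10.

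The other genes of the pathway, with its regulators and other ATF4 targets, were taken from lists written by role. The lists were written with earlier results of these data known and held 96 genes, of which 81 passed the filter on low counts. All 81 are called pathway genes here and below, although 12 are ATF4 targets from outside the pathway and 6 are regulators. Over all genes tested, 33.9% were called lower and 34.5% higher in 3D against 2D cultures with palmitate. A list with counts near these shares, here or below, does not stand apart from all genes. Of the 81 pathway genes, 51 were called lower and 19 higher, with a median log2 fold change of -0.41. The 12 ATF4 targets made up 10 of the 51 and 2 of the 19. With palmitate in 3D cultures, 1.38% of all genes were called higher and 0.811% lower by edgeR, and 2.05% higher by DESeq2. At an unadjusted p-value under 0.05 the shares were 10.3% higher and 6.99% lower. Of the 81 pathway genes, 9 were called higher and none lower by edgeR, and 10 higher and 0 lower by DESeq2. The ATF4 targets made up 6 of the 9 and 6 of the 10. At an unadjusted p-value under 0.05 there were 28 higher and 3 lower. The median was 0.10. The number called with palmitate lay between 2 and 26 when single libraries were left out, the lowest without replicate 2 of the 3D cultures with palmitate or replicate 2 or 3 of those without it, and the highest without replicate 3 of those with it.

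Folate enzymes and carriers moved in both directions between the formats. Of 13 tested, 6 were called lower in 3D and 3 higher, with a median log2 fold change of -0.12. Fpgs, which adds the glutamate tail that keeps folates in the cell, was lower at -0.96 (SE 0.114, adjusted p = 3.52e-06 in edgeR). Sardh, the mitochondrial sarcosine dehydrogenase, was higher at 3.6 (SE 0.247, adjusted p = 1.13e-08), but from a low level, 0.360 ± 0.109 CPM (SD, n = 3) in 2D and 4.62 ± 0.227 CPM in 3D. None of the 13 was called with palmitate by edgeR or DESeq2, and 2 had an unadjusted p-value under 0.05.

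Among 12 genes that use or break down glycine and serine, 6 were called lower and 4 higher in 3D, with a median of -0.22. Gcsh, the carrier protein of the glycine cleavage system in which GLDC acts, was lower at -1.10 (SE 0.0682, adjusted p = 3.83e-09). Cth, which makes cysteine at the end of the route from serine, was lower at -1.09 (SE 0.0991, adjusted p = 2.11e-07). Sptlc1, a subunit of the enzyme that joins serine to palmitoyl-CoA in sphingolipid synthesis, was higher at 1.13 (SE 0.0732, adjusted p = 6.29e-09). With palmitate 1 was called, Alas1, the entry enzyme of heme synthesis from glycine, at 0.43 (SE 0.0751, adjusted p = 0.00913), and it was called in 16 of 19 alternative fits.

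Carriers of serine and glycine were split, with 4 lower and 4 higher in 3D of 9 tested and a median of 0.02. Slc1a5, a neutral amino acid exchanger, was lower at -0.61 (SE 0.0777, adjusted p = 6.63e-06), whereas its relative Slc1a4 was higher at 0.62 (SE 0.0637, adjusted p = 8.15e-07) and Sfxn3, of the sideroflexin family of mitochondrial serine carriers, at 0.92 (SE 0.0732, adjusted p = 5.43e-08). With palmitate Slc1a5 was called higher at 0.41 (SE 0.0789, adjusted p = 0.0162), in 12 of 19 alternative fits as well.

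The methionine cycle was split too, with 3 lower and 3 higher of 8 tested and a median of 0.08. Ahcyl1 was lower at -0.78 (SE 0.0661, adjusted p = 9.33e-08) and Ahcy, which splits S-adenosylhomocysteine, at -0.62 (SE 0.0724, adjusted p = 3.02e-06). Mat2a, which makes S-adenosylmethionine, was higher at 0.56 (SE 0.0626, adjusted p = 1.76e-06). None was called with palmitate by edgeR or DESeq2, and 0 had an unadjusted p-value under 0.05.

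Purine synthesis, which draws on glycine and formyl-tetrahydrofolate, had 11 of 13 genes lower in 3D and 1 higher, with a median of -0.45. Impdh1, at the branch to guanine nucleotides, was lower at -1.32 (SE 0.0783, adjusted p = 2.53e-09), as were Ppat, which commits to purine synthesis, at -0.76 (SE 0.0703, adjusted p = 2.57e-07), and Impdh2 at -0.63 (SE 0.0626, adjusted p = 5.56e-07). None was called with palmitate by edgeR or DESeq2, and 4 had an unadjusted p-value under 0.05, all higher.

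Of 8 glycolytic genes around 3-phosphoglycerate, 7 were lower and 1 was higher in 3D by edgeR, with a median of -0.70. DESeq2 called 7 lower and 0 higher. Pgam1, which draws 3-phosphoglycerate away from serine synthesis, was lower at -0.78 (SE 0.0579, adjusted p = 2.59e-08), as were Eno3 at -1.27 (SE 0.0881, adjusted p = 1.25e-08) and Eno2 at -1.27 (SE 0.11, adjusted p = 1.20e-07). With palmitate 1 was called by edgeR, Eno3 at 0.38 (SE 0.0898, adjusted p = 0.0418), in 6 of 19 alternative fits. DESeq2 called 2 higher and 0 lower, and at an unadjusted p-value under 0.05 there were 5 higher and 1 lower. Eno1 had 1 count in all libraries together and Gapdh 6.47 CPM in 3D cultures with palmitate. Both genes have near-identical copies between which the counting can lose or split reads, so their values are uncertain.

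**Figure D5:**
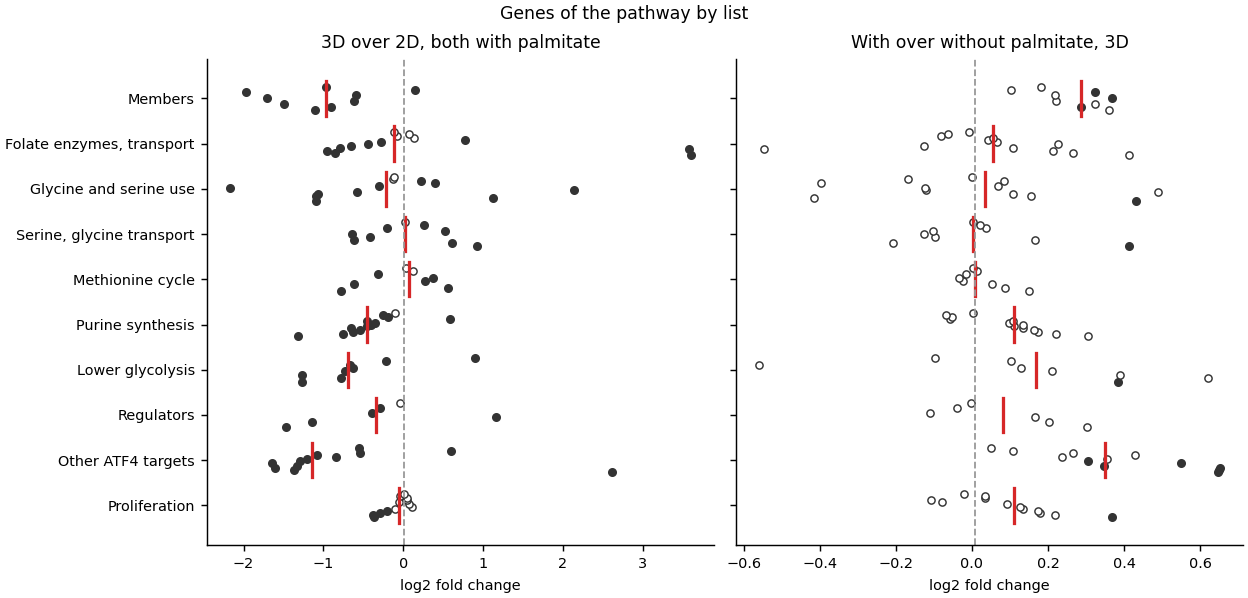
Log2 fold change of each gene tested (horizontal axes) in the members and in 9 other lists, in 3D over 2D cultures with palmitate (left) and with over without palmitate in 3D cultures (right). Filled points passed an adjusted p-value of 0.05, open points did not, red lines are list medians and the dashed line is the median of all genes tested. The medians of the members and of the other ATF4 targets are -0.97 and -1.14 on the left, and 0.29 and 0.35 on the right. The members were listed with both comparisons known, so nothing is read from their place among the lists. The other lists were also written with earlier results of these data known.

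Transcripts of Atf4 and Myc were lower in 3D, as were 8 members, and those of Nfe2l2 were higher. Atf4 stood at 318 ± 10.3 CPM (SD, n = 3) in 3D cultures with palmitate and 704 ± 34.9 CPM in 2D, a log2 fold change of -1.15 (SE 0.0639, adjusted p = 1.26e-09). Myc stood at 166 ± 13.8 CPM in 3D and 461 ± 22.2 CPM in 2D, a log2 fold change of -1.47 (SE 0.0720, adjusted p = 3.20e-10). Nfe2l2, which encodes the antioxidant regulator NRF2, rose from 109 ± 2.84 CPM in 2D to 245 ± 39.9 CPM in 3D (log2 fold change 1.16, SE 0.0927, adjusted p = 5.56e-08). With palmitate none of the 6 regulators tested was called by edgeR or DESeq2, and 3 had an unadjusted p-value under 0.05. Atf4 was at 0.20 (SE 0.0636, adjusted p = 0.115), Myc at 0.17 (SE 0.0717, adjusted p = 0.250) and Nfe2l2 at -0.04 (SE 0.0906, adjusted p = 0.882). Whether these factors act on the members was not tested.

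Of 12 other genes known as ATF4 targets outside the pathway, 10 were lower and 2 higher in 3D, with a median of -1.14. Chac1, a glutathione-degrading enzyme, was lower at -1.61 (SE 0.0810, adjusted p = 4.21e-10), and Aldh18a1, the entry enzyme of proline synthesis, at -1.37 (SE 0.0665, adjusted p = 2.88e-10). Slc7a11, the cystine carrier, was higher at 2.62 (SE 0.0991, adjusted p = 1.96e-11). With palmitate 6 of the 12 were called, all higher, with a median of 0.35. Chac1 was at 0.65 (SE 0.0894, adjusted p = 0.00178) and was called in all 19 alternative fits. Atf3 was at 0.65 (SE 0.116, adjusted p = 0.0105) and Sesn2 at 0.65 (SE 0.120, adjusted p = 0.0126), called in 14 and 13 of them.

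Dividing cells draw on one-carbon units for nucleotides, so 12 genes of proliferation were looked at as well. Their summed level was between 4806 and 4982 CPM in 2D libraries and between 4502 and 5231 CPM in 3D libraries with palmitate. Of these, 4 were lower in 3D and 0 were higher by edgeR or DESeq2 (0 higher also at an unadjusted p-value under 0.05), with a median of -0.05. Cdk1, the mitotic kinase, was at -0.37 (SE 0.0584, adjusted p = 5.67e-05) and Mki67, the proliferation marker, at 0.12 (SE 0.105, adjusted p = 0.343). With palmitate 1 of the 12 was called by edgeR, Rrm2, a ribonucleotide reductase subunit, at 0.37 (SE 0.0621, adjusted p = 0.00711), a gene named after its value was seen. DESeq2 called 2 higher and 0 lower, against 2.05% of all genes called higher. At an unadjusted p-value under 0.05, 5 were higher and 0 lower, as were 10.3% and 6.99% of all genes. The groups did not overlap for 7, all higher, as for 10.4% of all genes. The part of proliferation in the levels of the members was not tested.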

How the data were processed

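RNA of 4T1 cells was sequenced from 9 KAPA stranded mRNA libraries. The authors trimmed single-end reads with fastq-mcf and inspected them in FastQC 0.11.9. HISAT2 2.1.0 was then used for alignment to mm10 (GRCm38). The deposited values are raw counts for each gene from HTSeq-count. The annotation release and strand setting are not given in the sources used here. Total counts ranged from 6595514 to 31177756, and few counts limit the precision of genes such as Gldc.

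Samples were grouped by their titles. Genes with low counts were removed with filterByExpr, libraries were scaled by TMM, and all 9 entered 1 quasi-likelihood fit in edgeR 4.0.16 (R 4.3.3), with Benjamini-Hochberg adjustment over 12575 genes and a threshold of 0.05. Both comparisons share the 3D libraries with palmitate. The SE was taken from the F statistic, as the absolute log2 fold change over its square root. Exon lengths, overlaps and GC content came from GENCODE M21 on GRCm38, to which 23376 of 24421 genes matched by symbol and 669 by a single synonym. The procedure was tested on simulated data.

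The members and lists were chosen with earlier results of these data known. The rule for other genes took, from each list, the 3 with the smallest p in 3D against 2D, up to 3 called with palmitate, and always Atf4, Myc and Nfe2l2. A gene that this rule names is not reported here. Alternatives were RLE scaling, library size only, no filter, at least 10 counts in every library, only the 2 groups, a replicate block, DESeq2 1.42.0 on all libraries and each library left out. Removal of trends with GC content and length (natural splines, 4 degrees of freedom), Rn45s as a covariate and DESeq2 on the 2 groups were added after seeing the data.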

Additional observations from a re-analysis of the deposited data

How the results depend on the processing

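In 3D against 2D cultures, the 8 members called lower were called lower in all 19 alternative fits. Between 7733 and 9063 genes were called in these fits, and the members were listed with this comparison known, so nothing is read from the calls kept. Mthfd1l lost its call in 11 fits and reversed in 1, to -0.00014 on the log2 scale, when trends with GC content and length were taken out. Leaving out single libraries gave 8 to 9 members called and 65 to 72 other pathway genes. With palmitate, the 3 members called became 5 without the filter on low counts, 5 with DESeq2 on all libraries and 6 after the GC and length correction, where the 275 genes called in all became 617, 395 and 1005. They became 0 by edgeR with only the 2 groups, with Rn45s as a covariate or with the replicate block, where 7, 6 and 7 members had an unadjusted p-value under 0.05 and Shmt2 kept log2 fold changes of 0.36, 0.39 and 0.37, and lay between 0 and 7 when single libraries were left out. The 9 other pathway genes called with palmitate became 1 with only the 2 groups, 1 with Rn45s as a covariate, 4 with the replicate block and 20 after the GC and length correction, and lay between 2 and 26 when single libraries were left out. The cause of these shifts was not tested. Libraries of a group were compared in pairs by chi-square per gene, over genes with at least 20 counts in the pair. It was 16.4 to 19.7 in 3D with palmitate, 4.84 to 7.37 in 3D without it and 3.89 to 9.30 in 2D. The fit of all 9 libraries shares 1 estimate of spread over these unlike groups, and the fit of the 2 groups has fewer samples. Genes called higher made up 50.4% of all called in 3D against 2D, and 42.4% after the GC and length correction. With palmitate they made up 62.9%, against 46.7% with library size only and 52.7% without the filter. Deviations from the group mean correlated at -0.24 to 0.15 between libraries of the same replicate number and at -0.17 to 0.28 between other numbers. No sign of pairing by number was seen, but whether libraries shared a culture or batch was not tested. With the replicate block 8 members and 69 other pathway genes were called in 3D against 2D. Depth limits Gldc, which was too low to compare.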
